A study of Mus musculus with 12 samples.

Results

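The transcripts described here are 10 genes of natural killer (NK) cell receptors and their signalling adaptors, measured in cultured mouse CD8 T cells. They are 8 lectin-like receptors (Klrk1, Klrd1, Klrc1, Klrc2, Klra5, Klrg1, Klrb1c and Klre1) and the adaptors Fcer1g and Tyrobp, and they were found by their symbols among the 55450 genes of the files. All 10 passed the filter on low counts, as did 13636 genes in all. The cells were CD8 T cells of pmel-1 mice, which carry a transgenic T cell receptor for a peptide of the melanocyte antigen gp100, and every library was wild type for Ucp2. Cells of all groups were activated through the receptor, with peptide or with antibodies to CD3 and CD28 (the labels do not say which for a given library), and then expanded with 10 ng/ml of IL-2 over 4 days. The 12 libraries form 4 groups of 3: genipin with N-acetylcysteine (genipin+NAC), genipin, NAC, and vehicle, which was culture medium. Genipin is a plant compound used as an inhibitor of the mitochondrial carrier Ucp2, NAC is a thiol antioxidant, and their doses are not in the labels used here.

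NK receptors of this kind are encoded side by side in a cluster on mouse chromosome 6, and activated CD8 T cells carry several of them. The inhibitory ones hold tyrosine motifs that recruit phosphatases such as SHP-1. The activating ones have almost no signalling tail of their own and depend on small adaptors: FcRγ (Fcer1g) and DAP12 (Tyrobp), which carry the activation motif ITAM and feed the kinases Syk and Zap70, and DAP10 (Hcst), which feeds phosphoinositide 3-kinase. In T cells such receptors adjust the response to the T cell receptor and, with enough adaptor, allow NK-like recognition of target cells.

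Depth was 20838894 to 31098648 expected counts per library, with a common biological coefficient of variation of 0.0393. The labels do not say whether replicates came from separate mice or cultures, so the p-values speak only of the spread among these libraries, which may be technical. Among the genipin+NAC libraries replicate 1 stood apart, with a chi-square per degree of freedom of 6.95 and 8.07 against the other 2, while the remaining pairs of all groups gave 2.08 to 2.92. Without that library the member counts of the 3 comparisons of genipin+NAC and of the interaction were the same, at 7, 9, 10 and 5. CD8 T cell transcripts were abundant: Cd3e had 234 to 337 CPM and Cd8a 393 to 817 CPM as group means. Of 18 myeloid markers 14 failed the filter, among them the macrophage markers Csf1r, Adgre1 and Lyz2 with at most 1, 3 and 7 counts in any library, and 4 passed it (Cd68, Ctss, Itgam and Cd14). Of 10 B cell markers and of 10 mast cell and basophil markers 4 each passed, with Ighm at 188 CPM with NAC and Kit at 237 CPM with genipin+NAC. CPM scale a count to the normalized total of its library. TPM also scale it to transcript length, and comparisons between genes use them.

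Promoter windows of 300 bases, from 250 bases before to 50 after the annotated start, were held by the RefSeq table (GRCm38.p6) for 7 of the 10 members. The windows of Klra5 and Klra3 are shown because these Ly49 genes share most of this sequence, while genipin raised the one transcript and lowered the other. Over 229 aligned bases without gaps 206 were identical (90%). Capitals mark the 23 bases that differ within the aligned stretch, and both lines read 5′ to 3′ on the minus strand. Klra6, which lies between them, shares 246 of 271 aligned bases with Klra5 (90.8%) and also fell with genipin against vehicle (log2 fold change -1.63 ± 0.47), but it had 2 to 7 counts per genipin library and its window is not shown.
Klra5, chr6:129913175-129913474: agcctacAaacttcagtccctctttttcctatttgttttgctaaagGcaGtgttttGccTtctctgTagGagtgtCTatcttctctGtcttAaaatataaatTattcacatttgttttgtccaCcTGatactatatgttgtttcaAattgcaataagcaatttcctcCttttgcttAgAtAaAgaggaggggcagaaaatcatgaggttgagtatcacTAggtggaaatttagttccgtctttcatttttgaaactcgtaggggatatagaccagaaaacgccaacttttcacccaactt
Klra3, chr6:130337577-130337876: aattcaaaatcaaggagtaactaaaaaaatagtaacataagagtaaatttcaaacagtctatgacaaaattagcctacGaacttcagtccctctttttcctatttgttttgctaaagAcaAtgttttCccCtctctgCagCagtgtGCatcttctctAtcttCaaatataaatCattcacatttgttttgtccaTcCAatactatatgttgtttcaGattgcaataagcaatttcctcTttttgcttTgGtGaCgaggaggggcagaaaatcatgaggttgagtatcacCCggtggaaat
The Klra5 window lies inside the gene as annotated by GENCODE, whose start is further upstream, so it is the RefSeq start that is shown.

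The window of Fcer1g is shown because its transcript had the widest range of the 3 most abundant members. Capitals mark the letters AGGAAG (the core of ETS factor motifs), at positions -44 and -5, and TGTGGT (the core of RUNX motifs), at position 9, counted from the start as 0.
Fcer1g, chr1:171234300-171234599, minus strand: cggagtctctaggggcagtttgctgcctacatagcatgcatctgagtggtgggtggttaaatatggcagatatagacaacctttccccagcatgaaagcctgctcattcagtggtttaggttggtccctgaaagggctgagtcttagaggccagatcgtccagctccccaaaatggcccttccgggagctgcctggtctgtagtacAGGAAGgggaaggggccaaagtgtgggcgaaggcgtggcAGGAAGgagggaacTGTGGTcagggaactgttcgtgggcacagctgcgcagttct
Both strands were searched. A member was counted if any of its windows held the letters, and Klrc2 and Klre1 had 2 windows each. The shares of all genes are per single window. TGTGGT or its reverse ACCACA was in the windows of 6 of 7 members, all but Klra5, and in 16.8% of the 32851 windows of all genes. AGGAAG or CTTCCT was in those of 3 members (Fcer1g, Klrb1c and Klre1) and in 35.4% of all windows. TGANTCA, the AP-1 core, was in those of Klrk1 and Klrc2 and in 7.81% of all, and AGGTGT, the T-box core, was in none of the 7 and in 13.7% of all. These are matches of letters and do not show binding.

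Measured per length, Klrd1, Klrk1 and Fcer1g were the most abundant members, and the 10 transcripts together gave 593 to 682 TPM with genipin+NAC, 928 to 955 TPM with genipin, 401 to 429 TPM with NAC and 619 to 645 TPM with vehicle. The groups of genipin+NAC and vehicle overlapped in this sum, while genipin lay above them and NAC below. That overlap came from genipin+NAC replicate 1 (682 TPM), the library that stood apart, while replicates 2 and 3 (596 and 593 TPM) lay below every vehicle library. Klrk1 and Klrd1 made up 84.4% to 85.6% of it with genipin+NAC, 60.6% to 63.6% with genipin, 88.6% to 89.3% with NAC and 74.7% to 76.1% with vehicle. In these bulk libraries, fewer cells that carry a transcript and less of it per cell cannot be told apart.

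**Figure D1:**
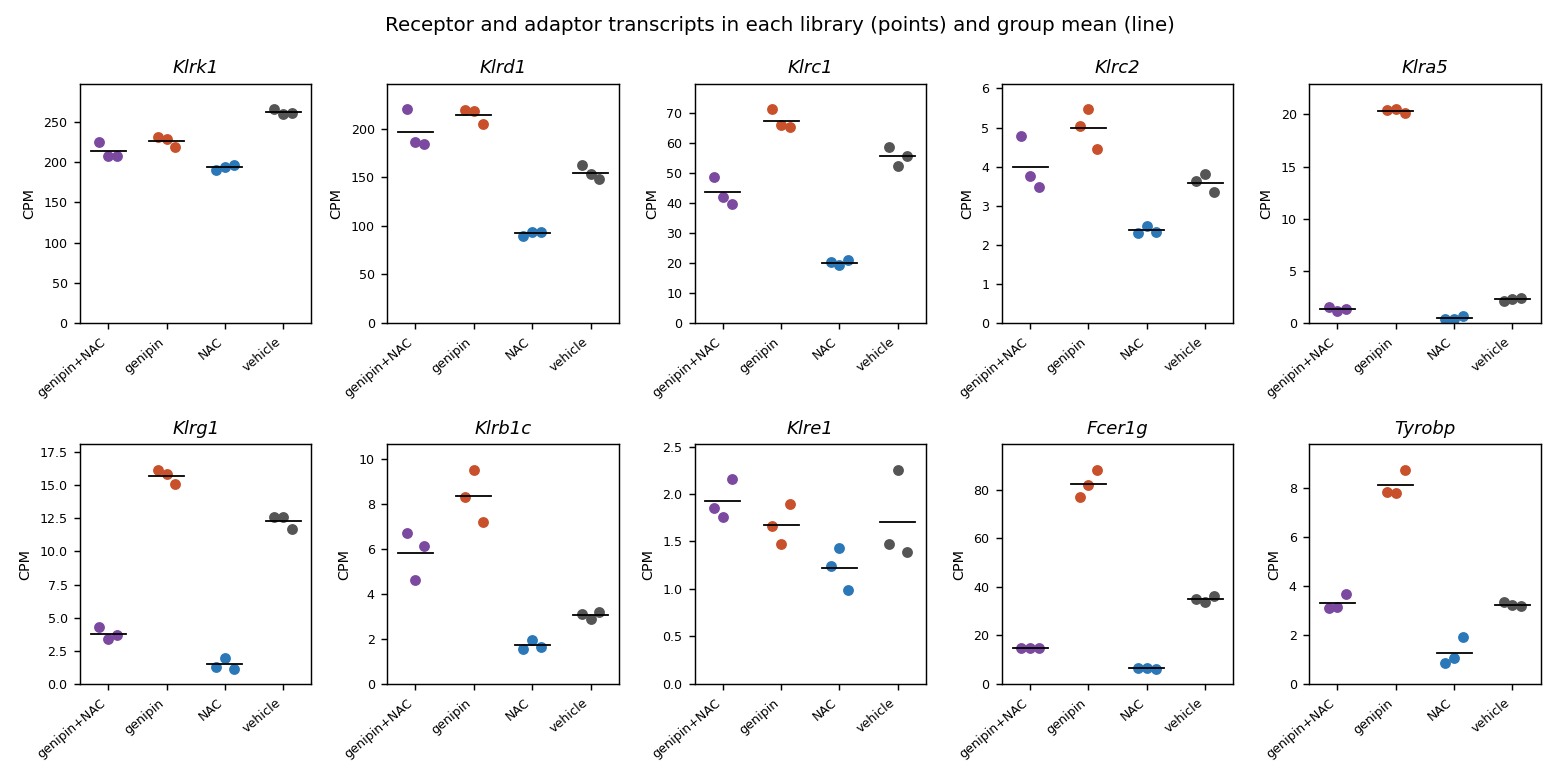
CPM (y axis, linear) of the 10 transcripts in each library, with 1 point per library and a line at the group mean, for genipin+NAC, genipin, NAC and vehicle from left to right. Klra5 stands at 20.1 to 20.5 CPM with genipin and at or under 2.36 CPM in all other libraries, whereas Klrk1 stays between 190.2 and 266 CPM throughout.

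With genipin against vehicle, 8 of the 10 transcripts rose and 1, Klrk1, fell. A gene was called at an adjusted p under 0.05 (quasi-likelihood test of edgeR, Benjamini-Hochberg adjustment over 13636 genes), and in this comparison 61.0% of all genes tested were called, 29.9% as higher and 31.0% as lower. The median log2 fold change was 0.47 over the members and -0.01 over all genes tested. With NAC against vehicle, 9 members fell and none rose, beside 59.7% of all genes called, 29.6% as higher and 30.0% as lower. The median was -1.08 over the members and -0.01 over all genes. Klre1 was the member called in neither. The members were chosen with earlier results of these data known, so their counts beside the shares of all genes are a description only.

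When both compounds were given, the members split. Against vehicle, Klrb1c and Klrd1 rose, Klra5, Klrg1, Klrc1, Klrk1 and Fcer1g fell, and Klrc2, Klre1 and Tyrobp were not called, with 57.4% of all genes called, 28.5% as higher and 28.9% as lower. Against genipin alone 9 members were lower and none higher, with 69.3% of all genes called, 35.0% as higher and 34.3% as lower. Of these calls 3, Klrc2, Klrd1 and Klrk1, had overlapping groups and were lost without genipin replicate 1 or 2 or without genipin+NAC replicate 2 or 3, each left out alone, so that 6 remained. Against NAC alone all 10 members were higher, with 53.1% of all genes called, 26.6% as higher and 26.5% as lower. The interaction, which is the genipin effect with NAC minus the genipin effect without it, was called for 5 members, 4 of them positive, with 51.4% of all genes called, 27.4% as positive and 24.0% as negative. All these comparisons share libraries, so their counts are not independent of each other.

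Members called with a change of at least 2-fold numbered 4 with genipin against vehicle (9.80% of all genes), 5 with NAC against vehicle (9.91%), 2 with genipin+NAC against vehicle (7.94%), 4 with genipin+NAC against genipin (14.6%), 7 with genipin+NAC against NAC (5.90%) and 1 in the interaction (9.86%). The groups did not overlap in CPM for 9 members with genipin against vehicle (66.7% of all genes), 9 with NAC against vehicle (65.9%), 7 with genipin+NAC against vehicle (60.8%), 6 with genipin+NAC against genipin (70.3%) and 10 with genipin+NAC against NAC (56.7%).

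**Figure D2:**
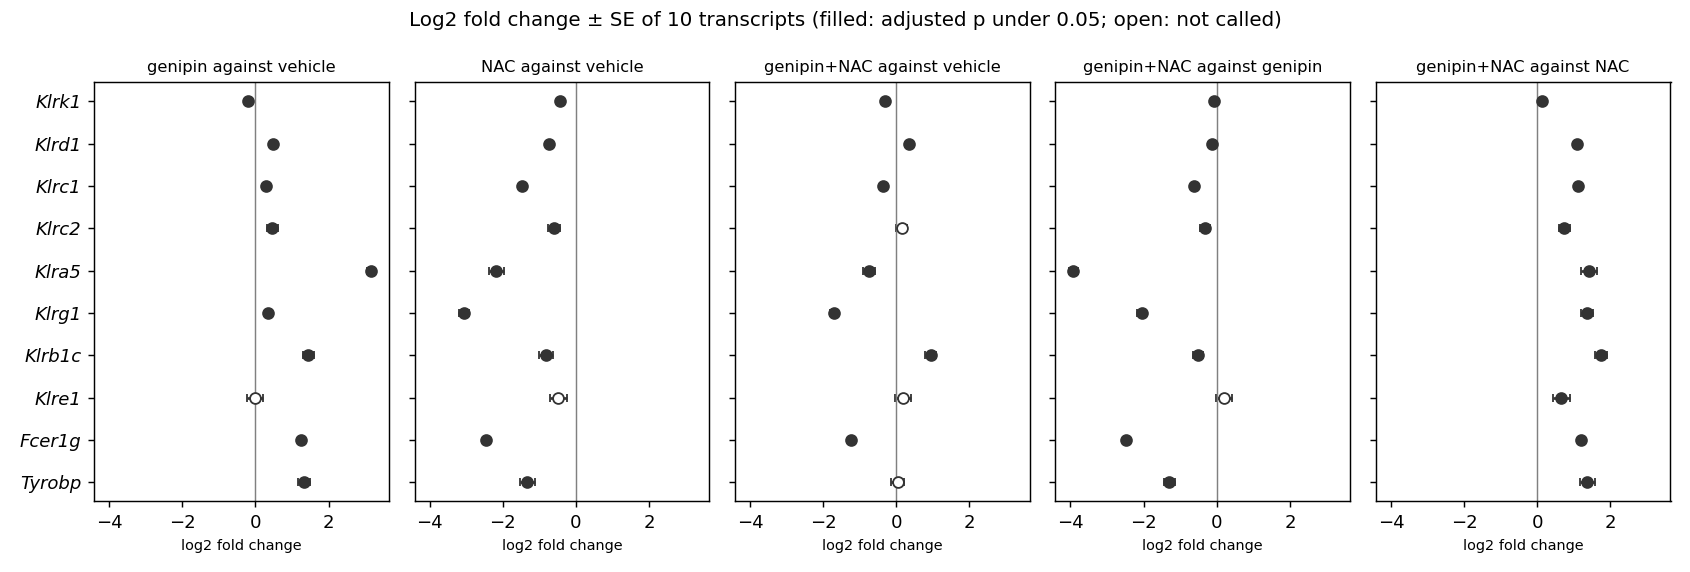
Log2 fold change (x axis) with its standard error for each of the 10 transcripts (rows) in 5 comparisons (panels), from the fit over all 12 libraries with n = 3 per group; filled points passed an adjusted p of 0.05. With NAC against vehicle all 10 points lie left of 0, 9 of them filled, and all 10 lie right of 0 when genipin+NAC is set against NAC.

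Klrd1 was far more abundant in TPM than Klrc1 and Klrc2, the genes of its NKG2 partners. CD94, from Klrd1 (ENSMUSG00000030165.16, mm10 chromosome 6, 129591782 to 129598775, plus strand), has no signalling part of its own and pairs with NKG2A, from Klrc1, into an inhibitory receptor or with NKG2C, from Klrc2, into an activating receptor that uses DAP12. Klrd1 had 220.4, 186 and 185 CPM with genipin+NAC, 219.5, 219.1 and 205 CPM with genipin, 90.1, 94.3 and 94.1 CPM with NAC and 162, 154 and 148 CPM with vehicle. The NAC libraries were the lowest, the vehicle libraries came next, and the groups with genipin overlapped above them. The log2 fold change of Klrd1 was 0.47 ± 0.05 (SE, n = 3) with genipin against vehicle, -0.74 ± 0.05 with NAC against vehicle and 0.35 ± 0.05 with genipin+NAC against vehicle, with edgeR adjusted p = 8.49e-08, 1.89e-10 and 6.89e-06. Of genipin+NAC against genipin it was -0.12 ± 0.05 (adjusted p = 0.0379), and with each library left out in turn it ran from -0.21 to -0.076, losing the call in 4 of 6 cases.

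Klrc1 (ENSMUSG00000030167.15, chromosome 6, 129666015 to 129678973, minus strand) had 48.8, 42.1 and 39.8 CPM with genipin+NAC, 71.3, 66.0 and 65.2 CPM with genipin, 20.3, 19.2 and 21.0 CPM with NAC and 58.9, 52.4 and 55.6 CPM with vehicle. No pair of groups overlapped, and the order from high to low was genipin, vehicle, genipin+NAC and NAC. NKG2A carries the inhibitory motifs of the pair and, with CD94, recognises the class I molecule Qa-1. Its transcript rose by 0.28 ± 0.06 with genipin against vehicle (edgeR adjusted p = 0.000494) and fell by 1.47 ± 0.07 on the log2 scale with NAC against vehicle (adjusted p = 1.37e-13). With genipin+NAC against vehicle the log2 fold change was -0.36 ± 0.06, the opposite sign from its partner Klrd1. The ratio of Klrd1 to Klrc1 in TPM was accordingly 10.0 to 10.9 with genipin+NAC, 6.32 to 6.96 with genipin, 9.71 to 12.1 with NAC and 5.75 to 6.86 with vehicle. The groups with NAC thus had more CD94 transcript per NKG2A transcript than the groups without it, and no test was made of the ratio.

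Klrc2 (ENSMUSG00000052736.15, chromosome 6, 129647496 to 129660689, minus strand) was 8.35 to 28.2 times below Klrc1 in TPM over the 12 libraries. It had 4.77, 3.76 and 3.47 CPM with genipin+NAC, 5.04, 5.47 and 4.46 CPM with genipin, 2.29, 2.48 and 2.32 CPM with NAC and 3.62, 3.80 and 3.35 CPM with vehicle. Only the NAC libraries stood clear of all others. Relative to vehicle the log2 fold change was 0.47 ± 0.14 with genipin (edgeR adjusted p = 0.00728) and -0.59 ± 0.16 with NAC (adjusted p = 0.00262). Klrc1 and Klrc2 share 4.32% and 2.48% of their 150-base windows with related transcripts, so a part of their reads cannot be assigned surely. On log2 TPM with limma the NAC difference of Klrc2 was -0.02 (adjusted p = 0.926), where the median of all genes was 0.18. With Klrc1, Klrc2 and Klrc3 summed, the log2 fold change was 0.29 with genipin and -1.39 with NAC, both against vehicle.

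The ligand of these receptors, Qa-1, is encoded by H2-T23, which the T cells transcribed themselves at 377 ± 8.35 TPM with genipin+NAC, 315 ± 4.78 TPM with genipin, 350 ± 9.87 TPM with NAC and 368 ± 1.96 TPM with vehicle (SD, n = 3 each). In the CPM-based fit H2-T23 fell by 0.35 ± 0.03 with genipin and by 0.27 ± 0.03 with NAC on the log2 scale against vehicle (edgeR adjusted p = 3.78e-09 and 1.69e-07). Its mean CPM were 339 with genipin, 358 with NAC and 431 with vehicle, so the NAC difference was larger in CPM than in TPM.

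NKG2D, from Klrk1 (ENSMUSG00000030149.15, chromosome 6, 129610323 to 129623864, minus strand), is an activating receptor that signals through DAP10 and, in mice, also through DAP12, and recognises stress-induced relatives of class I molecules. It had 225, 208 and 208 CPM with genipin+NAC, 231, 229 and 219 CPM with genipin, 190.2, 194 and 197 CPM with NAC and 266, 259.9 and 261 CPM with vehicle. Vehicle was highest and NAC lowest, and the ratio between their means, 1.35, was the smallest among the 10 members. Klrk1 was the one member lower with genipin than with vehicle (-0.21 ± 0.03, edgeR adjusted p = 1.22e-05), and it was lower with NAC (-0.44 ± 0.03, adjusted p = 3.61e-10) and with genipin+NAC (-0.30 ± 0.03, adjusted p = 1.33e-07) as well. With genipin+NAC against NAC it was higher by 0.14 ± 0.03 (adjusted p = 0.00151), but the difference was -0.044 on log2 TPM with limma (adjusted p = 0.373). The median of all genes in that limma comparison was -0.12.

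Around NKG2D, the transcript of Ulbp1 moved more than that of the receptor with genipin against vehicle, while Hcst and Klrk1 moved alike with NAC. Ulbp1, which encodes the NKG2D ligand MULT1, had 92.0, 77.8 and 81.0 CPM with genipin+NAC, 193, 193 and 192 CPM with genipin, 64.7, 67.0 and 65.0 CPM with NAC and 90.7, 95.4 and 98.6 CPM with vehicle. Genipin stood about 2.03-fold above vehicle (log2 fold change 1.02 ± 0.04, edgeR adjusted p = 3.25e-14), and NAC lay below it (-0.53 ± 0.05, adjusted p = 4.27e-09). Hcst, the gene of DAP10 next to Tyrobp on chromosome 7, had 40.6, 40.7 and 43.2 CPM with genipin+NAC, 33.3, 36.2 and 37.2 CPM with genipin, 20.8, 23.8 and 20.3 CPM with NAC and 31.6, 29.7 and 27.4 CPM with vehicle. It was highest with both compounds, by 0.49 ± 0.07 against vehicle, and lowest with NAC alone, by -0.45 ± 0.07 against vehicle (adjusted p = 1.28e-05). The TPM ratio of Hcst to Klrk1 was 1.11 to 1.27 with genipin+NAC, 0.904 to 1.01 with genipin, 0.623 to 0.720 with NAC and 0.621 to 0.718 with vehicle.

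Klra5 encodes Ly49E, an inhibitory receptor of the Ly49 family (ENSMUSG00000030173.15, chromosome 6, 129898996 to 129917650, minus strand). It had 1.51, 1.16 and 1.34 CPM with genipin+NAC, 20.4, 20.5 and 20.1 CPM with genipin, 0.414, 0.416 and 0.647 CPM with NAC and 2.07, 2.34 and 2.36 CPM with vehicle. The genipin libraries stood far above all others, and the NAC values rest on 9, 11 and 17 counts. Its level was 8.98-fold higher with genipin than with vehicle (log2 fold change 3.17 ± 0.11, edgeR adjusted p = 9.18e-16) and 4.52-fold lower with NAC (-2.17 ± 0.20, adjusted p = 7.17e-09). With genipin+NAC it was 15.2-fold lower than with genipin alone (-3.92 ± 0.12, adjusted p = 4.12e-17) and also below vehicle (-0.76 ± 0.16, adjusted p = 0.000428). Genipin raised it by 1.42 ± 0.22 in the presence of NAC, so the interaction was -1.75 ± 0.28 (adjusted p = 2.25e-05), the one negative interaction called among the members.

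The rest of the Ly49 family did not share the response of Klra5 to genipin. Of 10 other Klra genes in the files 6 were tested, and with genipin against vehicle 5 of them fell and none rose, beside 31.0% and 29.9% of all genes. Klra7, which encodes the inhibitory Ly49G2 receptor, had 3.70, 3.95 and 3.01 CPM with genipin+NAC, 1.82, 1.56 and 1.75 CPM with genipin, 2.99, 3.51 and 3.16 CPM with NAC and 7.69, 5.47 and 6.25 CPM with vehicle. Here the genipin libraries were the lowest, with a log2 fold change of -1.91 ± 0.16 against vehicle (edgeR adjusted p = 1.87e-09), and the interaction was 2.04 ± 0.23. Klra3 and Klra2, named after their values were seen, fell with genipin (-0.76 ± 0.19 and -0.98 ± 0.27) and with NAC (-1.15 ± 0.20 and -1.79 ± 0.30) against vehicle. With NAC 4 of the 6 fell, including Klra7 (-0.999 ± 0.149), beside 30.0% of all genes, so in that comparison Klra5 and most of its relatives had the same sign. No 150-base window of Klra5 or of the 6 was shared with another gene's transcript. The 11 genes summed were higher with genipin (0.62 ± 0.07) and lower with NAC (-1.22 ± 0.08) than with vehicle, and the interaction of the sum was not called (-0.23 ± 0.11, adjusted p = 0.0861).

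**Figure D3:**
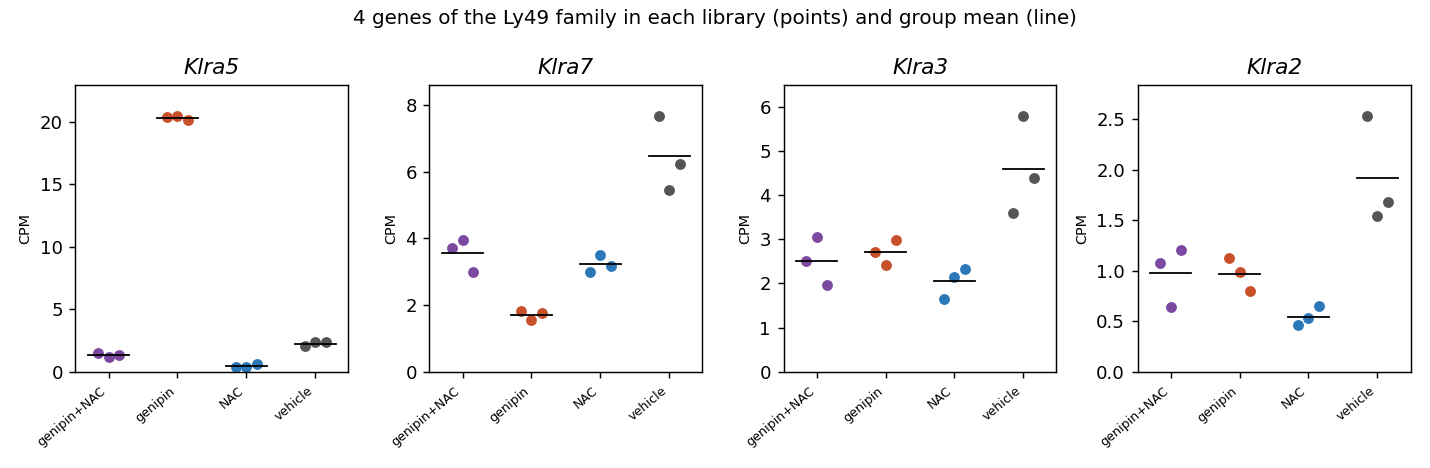
CPM (y axis, linear, own scale per panel) of 4 Ly49 genes in each library, with 1 point per library and a line at the group mean, for genipin+NAC, genipin, NAC and vehicle from left to right. Klra5 is highest with genipin at 20.1 to 20.5 CPM, while Klra7 is lowest there at 1.56 to 1.82 CPM and highest with vehicle.

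Klrg1 (ENSMUSG00000030114.8, chromosome 6, 122270596 to 122282882, minus strand) encodes an inhibitory receptor for cadherins and is widely used as a marker of terminally differentiated effector CD8 T cells. It had 4.26, 3.39 and 3.69 CPM with genipin+NAC, 16.2, 15.9 and 15.1 CPM with genipin, 1.29, 1.96 and 1.14 CPM with NAC and 12.6, 12.6 and 11.7 CPM with vehicle. The groups with NAC were both far below those without it. NAC alone lowered Klrg1 8.31-fold (log2 fold change -3.05 ± 0.14, edgeR adjusted p = 7.99e-14), the largest fall of a member against vehicle, and genipin alone raised it by 0.35 ± 0.10 (adjusted p = 0.00392). Genipin+NAC stood 3.25-fold below vehicle (-1.70 ± 0.12, adjusted p = 7.37e-11). Its interaction was 1.00 ± 0.19 (adjusted p = 0.000190), since genipin made a larger difference with NAC (1.35 ± 0.17) than without it. Its ligand gene Cdh1, the gene of E-cadherin, named after its values were seen, had 44.8 ± 1.097 CPM with genipin+NAC, 14.2 ± 0.338 CPM with genipin, 12.99 ± 0.589 CPM with NAC and 12.9 ± 1.03 CPM with vehicle (SD, n = 3 each). Cdh1 was highest with both compounds, and Klrg1 was lowest with NAC alone, where Cdh1 was near its vehicle level.

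Klrb1c encodes NKR-P1C, an activating receptor that uses FcRγ and is the classic surface marker of NK cells in C57BL/6 mice (ENSMUSG00000030325.16, chromosome 6, 128778485 to 128789215, minus strand). It had 6.72, 4.63 and 6.14 CPM with genipin+NAC, 8.31, 9.51 and 7.18 CPM with genipin, 1.56, 1.96 and 1.64 CPM with NAC and 3.08, 2.88 and 3.18 CPM with vehicle. Unlike for Klra5 and Klrg1, the genipin+NAC libraries stayed above vehicle. The log2 fold change was 1.44 ± 0.15 with genipin, -0.82 ± 0.18 with NAC and 0.94 ± 0.15 with genipin+NAC against vehicle (edgeR adjusted p = 2.51e-08, 0.000649 and 1.91e-05). Its interaction was 0.31 ± 0.23 and was not called (adjusted p = 0.270). The predicted gene Gm44511 overlaps Klrb1c on the same strand and shares 8.73% of its 150-base windows.

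Klre1 (ENSMUSG00000050241.8, chromosome 6, 129577905 to 129585827, plus strand), whose protein pairs with those of Klri1 and Klri2, had few counts in every group, 26 to 66 per library. It had 1.85, 1.76 and 2.16 CPM with genipin+NAC, 1.66, 1.47 and 1.896 CPM with genipin, 1.24, 1.44 and 0.990 CPM with NAC and 1.48, 2.25 and 1.39 CPM with vehicle. The vehicle libraries overlapped with those of all other groups. With genipin against vehicle the log2 fold change was -0.01 ± 0.23, and with genipin+NAC against NAC it was 0.66 ± 0.23 (edgeR adjusted p = 0.0227). That last call did not hold when genipin+NAC replicate 3 was left out (0.56, with adjusted p = 0.0941), nor when NAC replicate 3 was (0.52, with adjusted p = 0.104).

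The more abundant of the adaptor members was Fcer1g. FcRγ (ENSMUSG00000058715.11, chromosome 1, 171229572 to 171234365, minus strand) is the ITAM chain of Fc receptors and of several NK receptors, among them NKR-P1C. Fcer1g had 14.9, 14.9 and 14.8 CPM with genipin+NAC, 77.1, 82.2 and 88.2 CPM with genipin, 6.67, 6.57 and 6.05 CPM with NAC and 34.9, 33.9 and 36.3 CPM with vehicle. The 4 groups were fully separate. It was 2.35-fold higher with genipin than with vehicle (log2 fold change 1.23 ± 0.05, edgeR adjusted p = 3.68e-14) and 5.46-fold lower with NAC (-2.45 ± 0.07, adjusted p = 4.28e-17). Genipin+NAC was 2.36-fold below vehicle (-1.24 ± 0.06, adjusted p = 5.31e-13) and 5.55-fold below genipin (-2.47 ± 0.06, adjusted p = 6.65e-19). Its interaction was -0.03 ± 0.10 and was not called (adjusted p = 0.856).

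Tyrobp (ENSMUSG00000030579.10, chromosome 7, 30413760 to 30417585, plus strand), the gene of DAP12, was lower than Fcer1g throughout. It had 3.10, 3.13 and 3.66 CPM with genipin+NAC, 7.85, 7.81 and 8.75 CPM with genipin, 0.828, 1.06 and 1.90 CPM with NAC and 3.34, 3.21 and 3.18 CPM with vehicle. Genipin was highest and NAC lowest, and genipin+NAC overlapped with vehicle. The log2 fold change against vehicle was 1.33 ± 0.16 with genipin, -1.33 ± 0.21 with NAC and 0.03 ± 0.17 with genipin+NAC (edgeR adjusted p = 2.61e-07, 1.01e-05 and 0.887). In TPM, Fcer1g exceeded Tyrobp 3.34 to 3.98 times with genipin+NAC, 8.01 to 8.60 times with genipin, 2.62 to 6.67 times with NAC and 8.42 to 9.48 times with vehicle. The share of Fcer1g over Tyrobp was thus lower in both groups with NAC.

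Of 3 further transcripts linked to these adaptors and receptors, Cd247 varied little, while Sh2d1b1 and Fcgr3 were both highest with genipin and lowest with NAC. Cd247, the ITAM chain of the T cell receptor that also serves NK receptors, had 158 ± 4.79 TPM with genipin+NAC, 182 ± 0.756 TPM with genipin, 173 ± 2.95 TPM with NAC and 149.5 ± 3.32 TPM with vehicle (SD, n = 3 each). In the CPM-based fit it rose by 0.17 ± 0.03 with genipin against vehicle, and the NAC difference of 0.01 ± 0.03 was not called (edgeR adjusted p = 0.754). Sh2d1b1, the gene of the SAP-family adaptor EAT-2, had 9.02, 9.44 and 6.85 CPM with genipin+NAC, 28.4, 28.7 and 28.6 CPM with genipin, 0.843, 1.17 and 0.952 CPM with NAC and 8.68, 8.51 and 8.31 CPM with vehicle. It rose by 1.75 ± 0.09 with genipin and fell by 3.09 ± 0.15 on the log2 scale with NAC against vehicle (adjusted p = 4.81e-13 and 2.63e-13), and genipin+NAC overlapped with vehicle. Fcgr3, the Fc receptor that needs FcRγ at the surface, named after its values were seen, had 9.18 ± 0.793 CPM with genipin+NAC, 13.2 ± 0.943 CPM with genipin, 1.47 ± 0.336 CPM with NAC and 4.28 ± 0.540 CPM with vehicle (SD, n = 3 each).

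**Figure D4:**
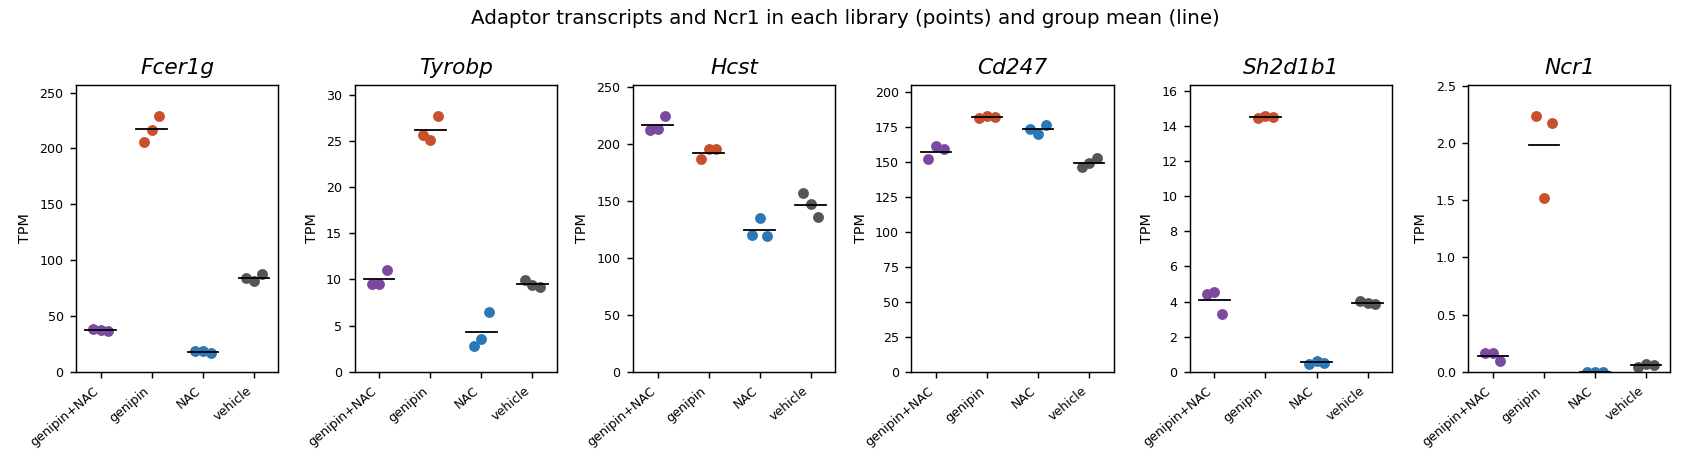
TPM (y axis, linear, own scale per panel) of the adaptors Fcer1g, Tyrobp, Hcst, Cd247 and Sh2d1b1 and of the receptor gene Ncr1 in each library, with 1 point per library and a line at the group mean, for genipin+NAC, genipin, NAC and vehicle from left to right. Fcer1g averages 217 TPM with genipin, 37.5 TPM with genipin+NAC, 17.9 TPM with NAC and 84.2 TPM with vehicle, while Cd247 averages 149.5 to 182 TPM in the 4 groups.

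Ncr1, which encodes the NK receptor NKp46 and depends on FcRγ or CD3ζ, was also named after its values were seen. It had 4, 4 and 3 counts with genipin+NAC, 61, 36 and 64 counts with genipin, 0, 0 and 0 counts with NAC and 1, 2 and 2 counts with vehicle. A count of 0 allows up to 3 counts per library, or 0.138 CPM in the shallowest NAC library, for counting error only. The genipin libraries were the ones with more than 4 counts.

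Of 16 NK cell and innate lymphoid markers outside the members, 11 rose and 2 fell with genipin against vehicle (median log2 fold change 0.56), while 29.9% of all genes rose and 31.0% fell. With NAC against vehicle 3 rose (Rora, Xcl1 and Zfp683, named after their values were seen) and 11 fell (median -0.75), while 29.6% of all genes rose and 30.0% fell. Cd244a, a receptor of NK and effector T cells that uses SAP-family adaptors, rose by 1.21 ± 0.04 with genipin and fell by 1.24 ± 0.05 on the log2 scale with NAC. The cytotoxic protease gene Gzma rose by 0.77 ± 0.03 and fell by 2.97 ± 0.03, and Il2rb, the shared receptor chain of IL-2 and IL-15, rose by 0.65 ± 0.03 and fell by 0.74 ± 0.03 in the same comparisons. Perforin (Prf1) fell by 1.24 ± 0.03 with NAC, while its genipin difference was 0.02 ± 0.03 (edgeR adjusted p = 0.603). The summed TPM of the 16 were 2422 to 2503 with genipin+NAC, 5495 to 5605 with genipin, 1724 to 1766 with NAC and 3520 to 3584 with vehicle. The sum with genipin+NAC lay below vehicle without overlap, and Gzma alone averaged 418 TPM with genipin+NAC and 1588 TPM with vehicle. By gene, 9 of the 16 rose and 4 fell with genipin+NAC against vehicle (median log2 fold change 0.26), while 28.5% of all genes rose and 28.9% fell. Activated CD8 T cells also transcribe most of these genes, and whether a share of NK cells in the cultures had a part in the members' values was not tested.

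The myeloid, the mast cell and basophil, and the B cell lists gave smaller sums than the NK cell list. Of 18 myeloid markers 4 passed the filter and 6 had no count in any library, and the sum was 137 to 145 TPM with genipin+NAC, 64.1 to 66.2 TPM with genipin, 156.5 to 159.7 TPM with NAC and 111 to 118 TPM with vehicle. The lysosomal genes Cd68 and Ctss gave most of it: Cd68 had 69.9 ± 6.41 CPM with genipin+NAC, 10.9 ± 0.367 CPM with genipin, 53.9 ± 2.11 CPM with NAC and 34.2 ± 3.19 CPM with vehicle (SD, n = 3 each). Ctss had group means of 49.7, 45.7, 78.4 and 77.5 CPM and Itgam of 39.7, 4.65, 11.9 and 8.40 CPM, in the same order of groups. Cd14 had 2.26 ± 0.182 CPM with genipin+NAC, 3.13 ± 0.211 CPM with genipin, 0.570 ± 0.110 CPM with NAC and 1.59 ± 0.379 CPM with vehicle, highest with genipin and lowest with NAC as Fcer1g and Tyrobp were. Myeloid cells express both adaptors strongly, and the part of such cells in the members' values was not tested. Of 10 mast cell and basophil markers 4 passed, with sums of 76.5 to 83.5 TPM with genipin+NAC, 49.7 to 53.8 TPM with genipin, 19.3 to 20.9 TPM with NAC and 20.9 to 23.3 TPM with vehicle, and the defining receptor chains Fcer1a and Ms4a2 had at most 1 count in any library. Mcpt8, a basophil protease gene, had 1.33 ± 0.328 CPM with genipin+NAC, 15.8 ± 2.21 CPM with genipin, 0.391 ± 0.117 CPM with NAC and 6.85 ± 0.0710 CPM with vehicle (SD, n = 3 each), which is the group order of Fcer1g and Klra5. Kit, the receptor of stem cell factor, had another order, with 237 ± 2.52 CPM with genipin+NAC, 33.9 ± 0.473 CPM with genipin, 54.4 ± 0.624 CPM with NAC and 15.3 ± 0.809 CPM with vehicle. Of 10 B cell markers 4 passed, with sums of 127 to 129 TPM with genipin+NAC, 49.96 to 54.1 TPM with genipin, 171 to 182 TPM with NAC and 33.2 to 33.8 TPM with vehicle. The 12 CD8 T cell markers summed to 5301 to 5387 TPM with genipin+NAC, 4701 to 4781 TPM with genipin, 4558 to 4632 TPM with NAC and 4284 to 4351 TPM with vehicle. The part of the B cell, mast cell and T cell markers in the members' values was not tested.

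Other genes of the receptor cluster, held on a separate list, mostly fell with genipin. Members and lists were chosen with earlier results of these data known. The contrast between members and relatives may partly reflect that choice and is a description only. Of 24 lectin-like relatives listed, 11 were tested, and with genipin against vehicle 9 fell and none rose (median log2 fold change -0.76), while 31.0% of all genes fell and 29.9% rose. Cd69, the early activation marker encoded in the same cluster, fell by 1.41 ± 0.03 with genipin and by 0.17 ± 0.03 with NAC on the log2 scale (edgeR adjusted p = 4.91e-19 and 6.66e-05). Clec2d, whose protein binds an inhibitory NKR-P1 receptor, fell by 0.50 ± 0.06 and 0.34 ± 0.06 in the same comparisons. With NAC against vehicle 7 of the 11 fell and 1, Clec2i, rose (1.17 ± 0.08), while 30.0% of all genes fell and 29.6% rose. With genipin+NAC against genipin 6 were higher and none lower, beside 35.0% and 34.3% of all genes. The interaction was positive for 8 and negative for none, beside 27.4% and 24.0% of all genes.

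Downstream of the adaptors, 13 of 18 adaptor and kinase genes rose and 3 fell with genipin against vehicle (median log2 fold change 0.27), and 6 rose and 6 fell with NAC (median -0.01). Over all genes 29.9% rose and 31.0% fell with genipin, and 29.6% rose and 30.0% fell with NAC. The Src-family kinase gene Fyn rose by 0.56 ± 0.03 with genipin and by 0.23 ± 0.03 with NAC. Lat2, a membrane scaffold of ITAM signalling, rose by 0.17 ± 0.03 with genipin and fell by 0.74 ± 0.03 on the log2 scale with NAC. Among 10 phosphatase and SAP-adaptor genes 8 rose and 1 fell with genipin, and 3 rose and 5 fell with NAC. Ptpn6, the gene of the phosphatase SHP-1 that the inhibitory receptors recruit, had 141 ± 2.52 CPM with genipin+NAC, 258 ± 3.93 CPM with genipin, 109 ± 2.01 CPM with NAC and 130.2 ± 1.32 CPM with vehicle (SD, n = 3 each). It rose by 0.99 ± 0.03 with genipin and fell by 0.25 ± 0.03 on the log2 scale with NAC against vehicle (edgeR adjusted p = 4.61e-17 and 3.38e-07). Sh2d1a, the gene of the adaptor SAP, fell in both comparisons, by 0.68 ± 0.04 with genipin and by 0.28 ± 0.04 with NAC. Of 7 ligand genes tested 1 rose and 4 fell with genipin, and 1 rose and 2 fell with NAC. With NAC 3 of the 7 were thus called, beside 59.7% of all genes.

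Across the 10 members, the order of the group means took 4 forms. Klra5, Klrg1, Klrc1 and Fcer1g ran genipin, vehicle, genipin+NAC and NAC from high to low, with all neighbours in that order called different. Klrb1c, Klrd1, Klrc2 and Tyrobp ran genipin, genipin+NAC, vehicle and NAC, where genipin+NAC and vehicle were not told apart for Klrc2 and Tyrobp. Klrk1 had vehicle on top, and Klre1 had genipin+NAC on top, with vehicle and then genipin next and not told apart from their neighbours above. The ratio of the highest to the lowest group mean in CPM was 41.3 for Klra5, 12.8 for Fcer1g, 10.7 for Klrg1, 6.44 for Tyrobp, 4.84 for Klrb1c and 3.35 for Klrc1, and between 1.35 and 2.31 for Klrd1, Klrc2, Klre1 and Klrk1.

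The genes nearest in pattern were taken by Pearson's r of log2(CPM + 0.5) over the 12 libraries, which share 4 treatments and are not independent. For Klra5 they were Sept11 (r = 0.997), Ulbp1 (r = 0.996) and Mfsd1 (r = 0.994). For Fcer1g the chemokine gene Ccl4 came first (r = 0.997), and for Klrg1 the galectin gene Lgals1 (r = 0.992). Klrc1 was nearest to Txndc9 (r = 0.995), followed by the granzyme gene Gzme (r = 0.991) and Lat2 (r = 0.990). Klrd1 was nearest to Epsti1 (r = 0.993) and Ifi209, both interferon-induced genes, Klrb1c to Plek (r = 0.990), Tyrobp to Hexim1 (r = 0.989), Klrk1 to Axl (r = 0.985) and Klrc2 to Irgm1 (r = 0.979). Klre1, with few counts, reached r = 0.862 with Tomm7.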

How the data were processed

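The authors deposited 1 gene table per library with expected counts, TPM and FPKM, per the file headers; FPKM were not used. Per the submitters' processing notes, bcl2fastq, cutadapt 1.18, STAR 2.7.0f, RSEM 1.3.1 and mm10 were used, with no role given, and whether counting used the strand is not given in the sources used here. Per the labels' protocols the kit kept strand, total RNA was depleted of ribosomal RNA, and reads were pairs of 150 bases. All 55450 IDs matched GENCODE M21, which gave coordinates. The deposited TPM were used as levels per length, and the authors' expected counts were rounded and tested.

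In edgeR 4.0.16 (R 4.3.3), filterByExpr kept 13636 genes, TMM factors ran from 0.961 to 1.05, and 1 model over all 12 libraries (8 residual and 12.6 prior degrees of freedom) gave 6 contrasts by the quasi-likelihood F test with Benjamini-Hochberg adjustment. A standard error is the size of the log2 fold change over the root of its F value, and it can be too small where counts are few. Alternatives used limma 3.58.1, DESeq2 1.42.0, other scalings, filters and thresholds, summed related genes, a replicate block and single libraries left out. Steps were tested on simulated data. Members and lists were chosen with earlier results of these data known. Beside the members, up to 4 genes per list with the smallest p in genipin or NAC against vehicle could be named, with Hcst and Cd247, and for each member the 3 genes nearest in pattern. Same-numbered libraries did not deviate together (r from -0.104 to 0.0824 over 18 pairs). Biopython 1.88 aligned promoters under Python 3.11.15, and matplotlib 3.10.9 drew the figures.
Values of a few listed genes were left out of the text.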

Additional observations from a re-analysis of the deposited data

Results flagged for a closer look

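The genipin effect differed with and without NAC, by the interaction test, for 5 members. On the log2 scale the effect with NAC minus that without it was -1.75 for Klra5, 1.00 for Klrg1, 0.83 for Klrc1, 0.61 for Klrd1 and 0.35 for Klrk1. Klra5 had the smaller genipin effect in the presence of NAC (1.42 with NAC, against 3.17 without it), whereas Klrg1 (1.35 against 0.35), Klrc1 (1.11 against 0.28) and Klrd1 (1.08 against 0.47) had the larger one there. Klrk1 was the one member whose genipin effect was called in opposite directions, at 0.14 with NAC, against -0.21 without it. The 0.14 turned to -0.044 with limma on log2(TPM + 0.1), where the median of all genes was -0.12. Single values were not checked for outlying libraries by Dixon's criterion, which is not applied to groups of 3.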

How the results depend on the processing

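Over the members' log2 fold changes under all alternatives, 969 kept direction and call, 60 lost the call, 2 gained it, 2 reversed and 13 uncalled values changed sign. The counts of members called, 9, 9, 7, 9, 10 and 5 in genipin against vehicle, NAC against vehicle, genipin+NAC against vehicle, against genipin and against NAC, and the interaction, ran with each library left out over 9 to 9, 9 to 9, 7 to 7, 6 to 9, 9 to 10 and 5 to 5. Where calls also had to reach 2-fold, they were 4, 5, 2 and 4 in the first 4 and 1 in the interaction (9.80%, 9.91%, 7.94%, 14.6% and 9.86% of all genes passed). With a filter at a mean of 5 CPM, which tests fewer members, they were 4 in genipin+NAC against genipin and 6 against NAC. With the replicate number as a block the counts stayed 9, 9, 7, 9, 10 and 5 and no call changed.

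The reversed values were Klrc2 in genipin+NAC against vehicle with related genes summed (-0.33, a sum that Klrc1 dominates) and Klrk1 in genipin+NAC against NAC with limma on log2(TPM + 0.1) (-0.044, adjusted p = 0.373; the cause was not tested). With that limma fit the interaction of Fcer1g was called (-0.30, adjusted p = 0.00243), that of Klrk1 was not (0.06, adjusted p = 0.374), and Klra5 in genipin+NAC against vehicle was not (-0.49, adjusted p = 0.113). The median of all genes was shifted as well in this fit. It was -0.23 in the interaction, -0.12 in genipin+NAC against NAC and 0.07 in genipin+NAC against vehicle, and 23.7% of the interaction calls were positive. Without normalization factors the median of all genes moved to 0.11 with NAC against vehicle and to -0.11 in the interaction, the share of higher calls was 67.5% and 35.3% (49.7% and 53.3% with them), and Klrk1 in genipin+NAC against NAC lost its call (0.06, adjusted p = 0.155). Low counts limit Klra5 and Tyrobp with NAC, and Klre1 in all groups.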
